A study of Mus musculus with 8 samples.

Results

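The comparison is of liver RNA at day 456 with liver RNA at day 90 in female mice fed 5% corn oil, and it rests on 4 of the 8 arrays of the study. Its members were chosen by their titles: the arrays labelled F1 5% D456 and F3 5% D456 at the later age, and the arrays labelled F1 5% D90 and F3 5% D90 at the earlier age, paired by generation. The mice were C57/BL6 females of the F1 or F3 generation, fed corn oil at 5% or 21% of the diet by weight, and their livers were taken after a fast of 6 h. Each combination of age, diet and generation was measured on 1 Illumina bead array. All 4 arrays of 5% fat shared strain, sex, diet and fast, and no transgene or deletion is named in the labels. How many animals went into each array is not in the labels, so the tests measure the spread between arrays, part of which may be technical. The 4 arrays of 21% fat, F1 and F3 at day 456 and at day 90, were read as a comparison that shares no array with the one on 5% fat.

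Liver RNA comes mostly from hepatocytes, which make plasma proteins and glucose and break down amino acids, fats and foreign compounds. Their work is divided along the blood flow, with amino acid breakdown and glucose production strongest near the portal vein and many cytochrome P450 enzymes strongest near the central vein. The rest comes from Kupffer cells, which are the resident macrophages of the liver, from endothelial, stellate and bile duct cells, and from leukocytes and red cells in the blood. Mouse liver also has a set of genes that are higher in males, driven by the pulsed secretion of growth hormone, and female liver holds them low. Rising numbers of leukocytes and shifts in these hepatocyte programmes are common features of the ageing mouse liver.

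All 4 arrays read as liver: the median over 32 hepatocyte identity genes was 11.39 and 11.47 on the log2 intensity scale in the day 456 arrays (F1 first, F3 second, as throughout), against 11.83 and 11.60 in the day 90 arrays. Transcripts of neighbouring organs were present too. The median over 36 genes of pancreatic acinar cells, which make digestive enzymes, was 8.96 and 9.67 at day 456, against 6.88 and 8.35 at day 90, and lay between 6.91 and 6.95 in the arrays of 21% fat. Pancreas transcripts were higher at day 456 in both pairs, 28 of the 36 by the rule given below. Skeletal muscle genes (37 measured) had medians of 6.999 and 7.37 at day 456, against 7.66 and 6.96 at day 90. Stomach genes (6 measured) stood at 7.83 and 7.05 at day 456, against 6.89 and 7.06 at day 90, and Tff2, a mucus peptide of the stomach, at 11.002 in F1 at day 456. These 79 genes were set aside. No other called gene stood at least 0.5 higher in the F3 5% D90 array, which holds pancreas RNA, than in the arrays without it. F1 5% D90 resembled the other arrays least, with an average correlation of 0.977 to them, where each other array had 0.986 to 0.990. Among the arrays of 21% fat, F1 21% D90 carried the Y-linked gene Eif2s3y at 7.37, against 6.77 to 6.82 in the other 7 arrays, although it is labelled female. It also held Xist, an RNA expressed in females, at 8.10, within the 7.98 to 8.63 of the other 7 arrays.

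**Figure D1:**
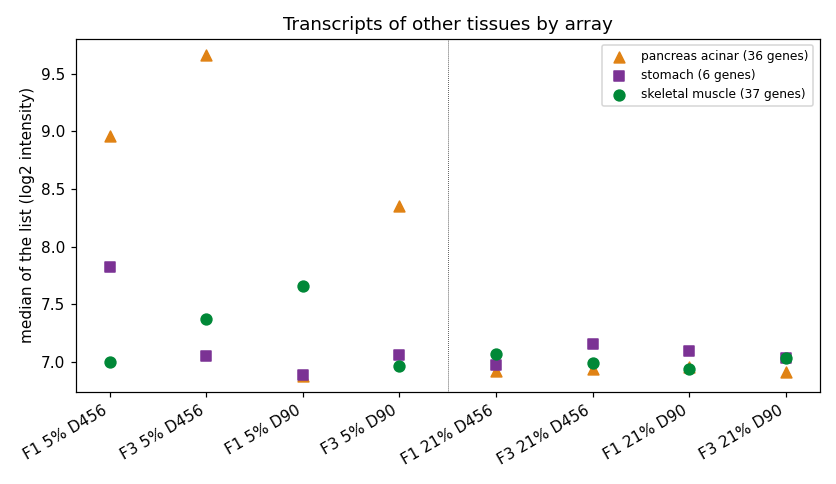
Median log2 intensity of the pancreas acinar, stomach and skeletal muscle genes (vertical axis) in each of the 8 arrays (horizontal axis), with 5% fat left of the dotted line. Pancreas genes stand at 8.96 and 9.67 in the day 456 arrays of 5% fat, against 6.88 and 8.35 in the day 90 arrays, and at 6.91 to 6.95 on 21% fat.

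A gene was called when its day 456 array differed from its day 90 array by at least 0.5 on the log2 scale, 1.41-fold, in the same direction in both generation pairs. Outside the genes set aside, 98 of 8866 genes (1.11%) were called higher at day 456 and 81 (0.914%) were called lower, while 16 of all 8945 genes tested (0.179%) differed by as much in opposite directions in the 2 pairs. With each array centred on its own median the split was 116 higher and 61 lower. The 98 genes had a median difference of 1.15 in the F1 pair and 0.63 in the F3 pair, and the 81 genes medians of -0.80 and -0.59. Over all genes tested the median of the mean differences was -0.04. The 2 ages did not overlap on 5% fat in any of the 98 or the 81, so a lack of overlap noted below adds nothing to a call. The call left genes close to its bound on either side: Gtf3a had a smaller difference of 0.502 and was called, H2-M3 had 0.492 and was not. Eif2ak3 at -0.50009 and Pck1 at -0.49979 lay as close on the lower side.

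The F1 pair differed more than the F3 pair. Its differences had an SD of 0.42 over all genes tested, against 0.22 in the F3 pair, and the F1 difference was at least 2 times the F3 difference in 40 of the 98 higher genes and 12 of the 81 lower genes. The F1 5% D90 array was the most extreme of all 8 arrays in 77 of the 98 and 66 of the 81. Neither these counts nor those of the F1 difference were taken over all genes tested. The call itself asks for a large difference from F1 5% D90, so both describe the called genes and test nothing. Without that array, when both day 456 arrays were set against F3 5% D90 alone, 91 genes (1.03%) were called higher and 80 (0.902%) lower, among them 83 of the 98 and 49 of the 81. Without F3 5% D90 in its place, 560 and 563 genes were called. The F3 pair difference is a condition both of the call and of the rule without F1 5% D90. Every called gene had thus met that condition beforehand. Counts of called genes kept by the pair rule without F1 5% D90, here and below, describe them and test nothing.

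**Figure D2:**
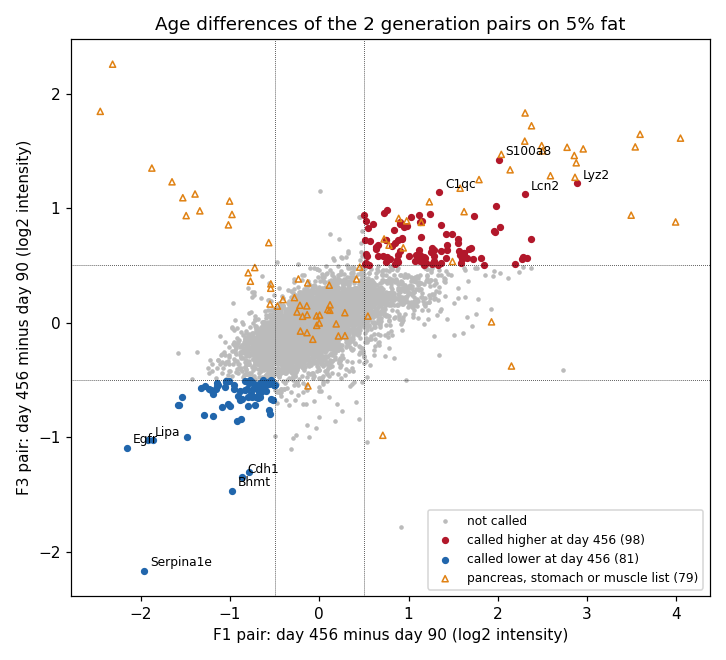
Difference of each gene between day 456 and day 90 on 5% fat in the F1 pair (horizontal axis) and the F3 pair (vertical axis), in log2 intensity, with dotted lines at the minimum of 0.5. The 98 genes called higher lie at the upper right and the 81 called lower at the lower left; triangles are the 79 genes of the pancreas, stomach and muscle lists.

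The mean difference of the 2 pairs was tested with limma in a fit of all 8 arrays, with Benjamini-Hochberg adjustment over 8945 genes and a threshold of 0.05. Of all 8945 genes 123 rose (1.38%) and 37 fell (0.414%). Outside the genes set aside 100 rose (1.13% of 8866) and 37 fell (0.417%), and 81 of these 137 were also called by the pair rule, 55 higher and 26 lower. Centred on their medians, the arrays gave 131 and 22. With 2 arrays against 2 and the pairing left aside, an exact two-sided permutation p cannot go below 0.333, and the pairing by generation leaves fewer arrangements still. The calls thus draw on variances shared across genes. Without the intensity trend of these variances limma called 0 genes (2211 at an unadjusted p below 0.05). The calls also turned on single arrays: without F1 5% D90 limma called 0 genes (994 at an unadjusted p below 0.05, smallest adjusted p 0.0959), and without F3 5% D90 it called 636 higher and 714 lower. Without F1 5% D456 it called 7 and 4, and without F1 21% D90 38 and 17. With the pancreas level of each array as a covariate 0 genes passed (322 of 8945 at an unadjusted p below 0.05, smallest adjusted p 0.939). That fit left 2 residual degrees of freedom. The pancreas level rose with age in both pairs of 5% fat and not on 21% fat, so the fit separates age from pancreas level poorly. Its 0 does not tell what part pancreas RNA has in the calls. Every adjusted p below comes from the limma fit of all 8 arrays, and none of those under 0.05 stayed under it without F1 5% D90 or with the pancreas covariate.

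Genes of neutrophils and macrophages led those called higher at day 456. S100a8 and S100a9 encode the subunits of calprotectin, a calcium-binding protein that neutrophils and monocytes hold in large amounts. S100a8 had 10.11 and 10.19 at day 456, against 8.09 and 8.77 at day 90, and rose 3.29-fold (1.72 ± 0.19 log2, SE, adjusted p = 0.0132). S100a9 had 9.05 and 9.02 at day 456, against 7.89 and 8.13 at day 90, and rose 2.03-fold (adjusted p = 0.0252). For both genes the day 456 arrays lay close together and above both day 90 arrays, and F1 5% D90 was the lowest. The cytokine gene Il1b stood at 7.80 and 7.97 at day 456, against 7.16 and 7.31 at day 90, a rise of 1.57-fold (adjusted p = 0.0146). Lcn2, a lipocalin that withholds iron from bacteria and is made by neutrophils and by stressed hepatocytes, had 10.90 and 10.76 at day 456, against 8.60 and 9.64 at day 90, and did not pass (adjusted p = 0.201). On 21% fat its 2 pairs went opposite ways, by -0.78 in F1 and 3.49 in F3.

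Of 13 neutrophil genes measured, 4 were called higher and 0 lower, against 1.42% and 0.906% of all genes tested, and 12 were above 0 in both pairs, against 26.1% of all genes tested. The median of the list was 0.33, against -0.04 for all genes tested. Counts of the lists below are to be read against these same shares. Without F1 5% D90, 3 of the 4 were called. Ptprc, which marks leukocytes in general, lay below the intensity filter of 6.95 in all 8 arrays, at 6.88 and 6.92 at day 456, against 6.89 and 6.92 at day 90 on 5% fat. In RNA of whole liver, more cells of a type and more RNA per cell cannot be told apart.

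The promoters of S100a8, S100a9 and Lcn2 are shown because these genes moved together, with motifs of factors active in myeloid cells marked. They are RefSeq sequences of GRCm38.p6, from 250 bases before to 50 after the start on the strand of the gene, and 139 of the 179 called genes had one. Capitals mark matches, on either strand, to the core of PU.1 (GAGGAAG, in 13.6% of 32851 promoters) and to the C/EBP motif (TTGCNNAA, in 10.8%), 2 motifs chosen after the values were seen. S100a8 lies at chr3:90668821-90669120 on the plus strand, S100a9 at chr3:90695672-90695971 on the minus strand and Lcn2 at chr2:32387690-32387989 on the minus strand.
S100a8: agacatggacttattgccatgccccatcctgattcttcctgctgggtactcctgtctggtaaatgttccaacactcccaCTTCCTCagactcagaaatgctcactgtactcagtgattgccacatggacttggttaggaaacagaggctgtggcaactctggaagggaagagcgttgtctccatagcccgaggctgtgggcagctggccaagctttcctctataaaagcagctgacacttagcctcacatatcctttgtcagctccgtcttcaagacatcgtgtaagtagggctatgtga
S100a9: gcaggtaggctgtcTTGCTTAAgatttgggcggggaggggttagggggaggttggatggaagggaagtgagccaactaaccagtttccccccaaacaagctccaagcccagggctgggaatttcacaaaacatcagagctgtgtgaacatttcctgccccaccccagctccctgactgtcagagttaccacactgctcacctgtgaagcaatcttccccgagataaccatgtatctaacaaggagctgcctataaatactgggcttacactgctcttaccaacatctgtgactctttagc
Lcn2: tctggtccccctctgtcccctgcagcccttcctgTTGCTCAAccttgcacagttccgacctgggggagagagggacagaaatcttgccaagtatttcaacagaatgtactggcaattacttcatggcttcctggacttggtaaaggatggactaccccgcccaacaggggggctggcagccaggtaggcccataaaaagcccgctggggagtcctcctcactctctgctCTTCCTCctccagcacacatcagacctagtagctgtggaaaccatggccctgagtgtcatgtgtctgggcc
Counted from the start, S100a8 held a PU.1 match from position -171 and S100a9 a C/EBP match from -236. Lcn2 held both, C/EBP from -216 and PU.1 from -21. The HNF1 and STAT motifs given with the promoters further below were searched here too, without a match. A match says only that these letters are there.

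Among 28 genes of Kupffer cells and macrophages, 10 were called higher and 0 lower, against 1.42% and 0.906% of all genes tested. By limma 7 of the list rose. The other 18 were not called. Of the 28, 17 were above 0 in both pairs, against 26.1% of all genes tested, and 3 were below 0 in both, against 45.4%. The list had a median of 0.24. Without F1 5% D90, 9 of the 10 were called higher and 1 other gene of the list was called lower. Lyz2, the lysozyme of macrophages and neutrophils, had the largest mean difference among the genes called higher, with 11.69 and 11.72 at day 456, against 8.80 and 10.51 at day 90, a rise of 4.15-fold (2.05 ± 0.33 log2, adjusted p = 0.0303). In the limma fit without F1 5% D90 the Lyz2 difference was 1.33. A second Lyz2 probe gave 0.94 in F1 and 0.32 in F3. The lysozyme gene Lyz1, another of the 10, was called at 13.03 and 13.05 at day 456, against 11.84 and 12.48 at day 90. Its other probes, at means of 6.98 and 6.96, gave 0.47 and 0.08 in the pairs, and 0.29 and 0.06. Whether a probe of either lysozyme gene reads both was not tested. The genes of C1q, the recognition unit of classical complement that macrophages make, moved in a narrower range. C1qc had 10.69 and 10.91 at day 456, against 9.34 and 9.78 at day 90, and rose 2.37-fold (adjusted p = 0.0146). C1qb had 10.89 and 11.01 at day 456, against 9.65 and 10.05 at day 90, and rose 2.14-fold (adjusted p = 0.0202). The day 456 arrays of both genes lay above both day 90 arrays by more than the day 90 arrays lay apart. Vsig4, a complement receptor that marks Kupffer cells, had 11.49 and 11.33 at day 456, against 10.54 and 10.50 at day 90, with near-equal values within each age but an adjusted p of 0.0608. Its spread on 21% fat, with age differences of 1.11 in F1 and 0.28 in F3, enters that test.

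Some of the named higher genes outside the macrophage list are known in myeloid or other white blood cells, though not in macrophages alone; they were grouped after their values were seen. Wfdc17, a secreted protein of activated mouse macrophages, rose 2.83-fold (10.30 and 10.09 at day 456, against 8.31 and 9.07 at day 90, adjusted p = 0.0279). Cyba, the p22phox subunit of the phagocyte oxidase, rose 1.85-fold (9.98 and 10.16 at day 456, against 9.07 and 9.28 at day 90, adjusted p = 0.0396). Adgre5, which encodes the leukocyte adhesion receptor CD97, rose 1.84-fold (8.41 and 8.67 at day 456, against 7.51 and 7.81 at day 90, adjusted p = 0.0208). Cyba and Adgre5 differed by nearly the same amount in F1 and F3. Of 2 other Adgre5 probes, 1 gave 0.87 and 0.77 in the pairs and the other -0.19 and 0.31. Sirpb1a, a signal-regulatory receptor of myeloid cells, and the chemokine Ccl8 were dim and had small but tight differences. Sirpb1a rose 1.47-fold (7.45 and 7.68 at day 456, against 6.92 and 7.09 at day 90) and Ccl8 rose 1.26-fold (7.20 and 7.21 at day 456, against 6.84 and 6.91 at day 90), both with the smallest adjusted p of the fit, 0.0132. Ccl8 stayed under the minimum of 0.5 and was not called.

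Antigen presentation followed. Of 15 genes of MHC class II and antigen presentation, 3 were called higher and 0 lower, 12 were above 0 in both pairs (26.1% of all genes were) and the median was 0.22. Lgmn, the lysosomal protease legumain, had 10.45 and 10.59 at day 456, against 9.09 and 9.73 at day 90, and rose 2.16-fold (adjusted p = 0.0330). Ifi30, a lysosomal reductase that opens disulfide bonds of antigens, had 8.38 and 8.42 at day 456, against 7.45 and 7.69 at day 90, and rose 1.78-fold (adjusted p = 0.0175), while a second probe gave 0.39 and 0.26. Cd74, the invariant chain of MHC class II, stood at 10.99 and 11.34 at day 456, against 10.48 and 10.62 at day 90, and just missed the threshold (adjusted p = 0.0565), with a second probe at 0.72 and 0.85. All 3 had day 456 arrays above both day 90 arrays, like all 98 genes called higher, and 2 of the 3 were called without F1 5% D90.

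Lymphoid and red cell lists gave 1 called gene each. Mzb1, a chaperone of antibody-secreting cells, was the 1 of 7 B and plasma cell genes called, with 7.82 and 7.71 at day 456, against 7.19 and 7.06 at day 90. It rose 1.56-fold (adjusted p = 0.0132), and all 7 genes of the list were above 0 in both pairs, against 26.1% of all genes (median 0.27). Among 15 T and NK cell genes the chemokine Ccl5 was called, at 8.77 and 8.76 at day 456, against 8.03 and 8.04 at day 90 (1.66-fold higher, adjusted p = 0.0460), and the list median was 0.07. The list as a group thus stayed near the median of all genes. Slc4a1, the anion exchanger of the red cell membrane, had 8.30 and 8.15 at day 456, against 7.17 and 7.27 at day 90, and rose 2.01-fold (adjusted p = 0.0132). It was the 1 of 7 red cell genes called (median 0.61), and each of the 3 genes was called without F1 5% D90 as well. None of 31 stellate cell and collagen genes was called (median -0.12), and the largest differences there were -0.48 for the collagen chain Col6a1, 0.47 for the filament protein Vim and -0.46 for the matrix protein Fbln1, with adjusted p of 0.0728, 0.0658 and 0.0546. Without F1 5% D90, with both day 456 arrays set against F3 5% D90, 4 of the 31 were called lower, against 0.902% of liver genes.

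**Figure D3:**
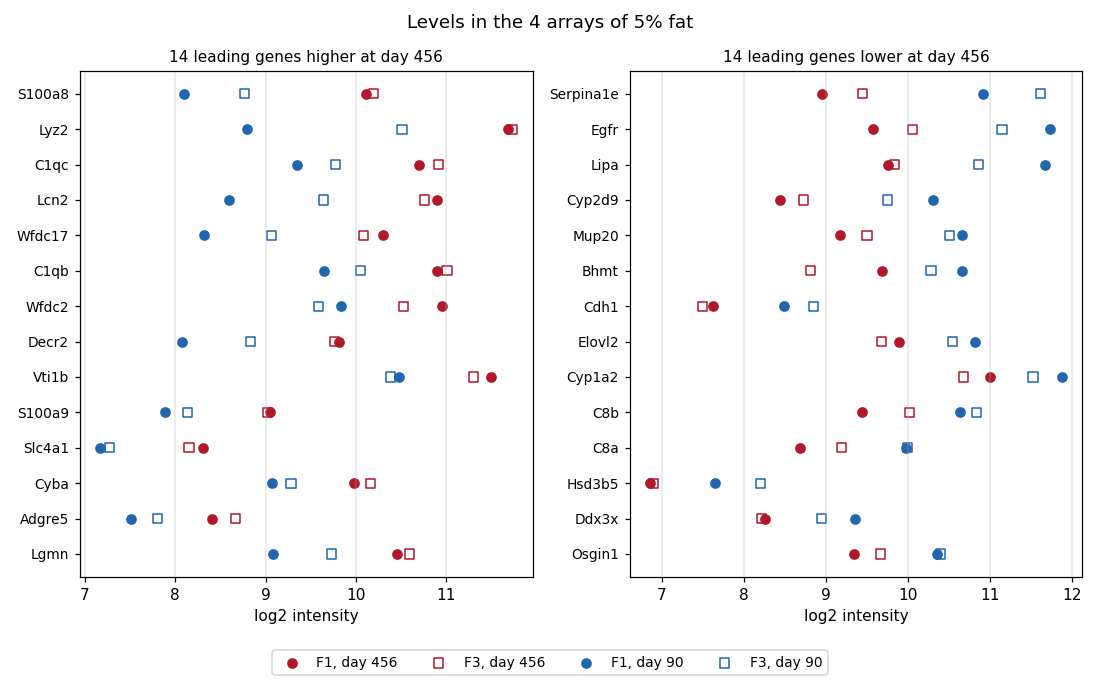
Log2 intensity (horizontal axis) of the 14 genes called higher and the 14 called lower with the largest smaller-of-2 pair difference, one row a gene, in the 4 arrays of 5% fat (red, day 456; blue, day 90; filled circles, F1; open squares, F3). In every row both day 456 arrays lie on one side of both day 90 arrays, as they do in all 98 and 81 called genes.

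The other leading higher genes lie outside the immune lists. Wfdc2, a secreted protease inhibitor of epithelia, rose 2.04-fold (10.95 and 10.53 at day 456, against 9.83 and 9.59 at day 90, adjusted p = 0.0497). Decr2, a peroxisomal reductase of unsaturated fatty acid breakdown, rose 2.52-fold (9.81 and 9.76 at day 456, against 8.08 and 8.83 at day 90, adjusted p = 0.0358). Vti1b, a SNARE protein of endosome fusion, rose 1.96-fold (11.50 and 11.30 at day 456, against 10.47 and 10.38 at day 90, adjusted p = 0.0302). Decr2 was lowest in F1 5% D90, while Wfdc2 and Vti1b had their lowest value in F3 5% D90 among these 4 arrays. A second probe gave smaller differences for Wfdc2 (0.66 and 0.38) and Vti1b (0.41 and 0.49) and like ones for Decr2 (1.59 and 0.90). Car3, the carbonic anhydrase of liver, muscle and fat, was the 1 of 10 adipose genes called. It had 12.69 and 12.76 at day 456, against 11.82 and 12.17 at day 90, and rose 1.67-fold (adjusted p = 0.0338). Tmem45b, a membrane protein, rose 1.70-fold (7.77 and 7.62 at day 456, against 6.87 and 6.99 at day 90, adjusted p = 0.0132).

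On the lower side the male-biased genes formed the largest group: 11 of 29 were called lower, against 0.906% of all genes tested, and 0 higher. The list median was -0.31. Without F1 5% D90 the same 11 were called lower, and 1 other gene of the list was called higher. By limma 3 genes of the list fell. Serpina1e, which encodes a form of alpha-1 antitrypsin, differed most of all called genes, with 8.95 and 9.45 at day 456, against 10.91 and 11.61 at day 90 (-2.07 ± 0.43 log2, adjusted p = 0.0508). Cyp2d9, a male-predominant steroid hydroxylase, stood at 8.44 and 8.73 at day 456, against 10.30 and 9.75 at day 90 (adjusted p = 0.0825). Mup20, a urinary pheromone protein, stood at 9.17 and 9.50 at day 456, against 10.66 and 10.50 at day 90 (adjusted p = 0.0770). Both day 456 arrays of these 3 genes lay below both day 90 arrays, as in all 81 genes called lower. Hsd3b5, a steroid dehydrogenase of male mouse liver, was at 6.86 and 6.90 at day 456, near the filter of 6.95, against 7.65 and 8.20 at day 90 (adjusted p = 0.235). The spread between the arrays of 21% fat enters these tests. F1 21% D90, the array with Eif2s3y, had Serpina1e at 13.03, Cyp2d9 at 11.33, Mup20 at 11.72 and Hsd3b5 at 10.39. F3 21% D90 had 11.51, 9.60, 10.32 and 8.07. These genes belong to families with close copies, and a probe may read more than 1 member.

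Egfr, the receptor of epidermal growth factor and a growth-hormone-responsive male-biased gene, fell to 9.57 and 10.05 at day 456, against 11.73 and 11.14 at day 90 (-1.62 ± 0.24 log2, adjusted p = 0.0255). Of 3 other Egfr probes 2 were called lower as well (-1.20 and -0.69, -1.18 and -0.81), and the dimmest gave -0.08 and -0.27. Among 21 genes of insulin, growth hormone and IGF signalling, Egfr and Igfbp2 were called lower and 0 higher (median -0.26). Igfbp2, a binding protein of insulin-like growth factors, had 11.15 and 11.40 at day 456, against 12.16 and 11.91 at day 90 (adjusted p = 0.0636), while another of its probes gave 0.72 and -0.03. In the female-biased list 1 of 22 genes was called, in the higher direction (median -0.03). That gene, Ntrk2, a neurotrophin receptor, had 9.69 and 9.29 at day 456, against 8.04 and 8.73 at day 90, and rose 2.16-fold (adjusted p = 0.0490).

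Complement and coagulation genes mostly stood lower at day 456. Of 40 measured, 4 were called lower and 0 higher, 32 were below 0 in both pairs, against 45.4% of all genes tested, and the median was -0.22. C8a and C8b, which encode chains of the membrane attack complex and are also on the male-biased list, led it. C8a had 8.68 and 9.19 at day 456, against 9.97 and 9.99 at day 90 (-1.05 ± 0.23 log2, adjusted p = 0.0586). C8b had 9.44 and 10.02 at day 456, against 10.63 and 10.83 at day 90 (-1.003 ± 0.25 log2, adjusted p = 0.0728). Neither passed, and each lay lower at day 456 in both pairs, as the call requires. Serpinc1, which encodes antithrombin, was at -0.68 (adjusted p = 0.0816, second probe -0.35 and -0.37) and Cfb, factor B of the alternative complement pathway, at -0.64 (adjusted p = 0.0770). Without F1 5% D90, 2 of the 4 were called. The C1q genes above are made by macrophages and are not counted here.

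The promoters of Serpina1e, C8a and C8b are shown as examples of called lower genes whose products hepatocytes secrete into plasma. Other called genes differed more than the C8 genes, and none of the 3 passed limma. Capitals mark the C/EBP motif, the half-site of HNF1 (GTTAAT, in 7.1% of promoters) and the STAT motif (TTCNNNGAA, in 8.3%), each on either strand and chosen after the values were seen. Serpina1e lies at chr12:103956848-103957147 and C8a at chr4:104876349-104876648, both on the minus strand, and C8b at chr4:104766067-104766366 on the plus strand.
Serpina1e: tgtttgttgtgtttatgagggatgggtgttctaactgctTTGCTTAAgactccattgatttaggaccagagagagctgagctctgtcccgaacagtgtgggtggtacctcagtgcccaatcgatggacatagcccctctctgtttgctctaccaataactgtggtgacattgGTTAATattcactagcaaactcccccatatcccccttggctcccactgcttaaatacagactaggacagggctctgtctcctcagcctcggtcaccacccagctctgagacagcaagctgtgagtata
C8a: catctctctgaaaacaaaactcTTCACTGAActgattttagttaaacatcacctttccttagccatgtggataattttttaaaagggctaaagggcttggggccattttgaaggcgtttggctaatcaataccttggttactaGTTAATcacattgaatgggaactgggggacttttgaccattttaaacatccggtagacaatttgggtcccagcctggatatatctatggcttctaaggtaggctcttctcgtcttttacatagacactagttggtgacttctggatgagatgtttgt
C8b: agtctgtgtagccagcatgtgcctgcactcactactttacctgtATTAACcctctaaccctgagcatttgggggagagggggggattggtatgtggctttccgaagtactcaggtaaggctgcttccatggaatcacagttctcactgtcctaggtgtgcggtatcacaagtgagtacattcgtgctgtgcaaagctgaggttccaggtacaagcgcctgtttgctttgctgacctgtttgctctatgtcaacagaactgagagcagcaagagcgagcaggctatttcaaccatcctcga
An HNF1 half-site match began at position -78 in Serpina1e, -107 in C8a and -206 in C8b. Serpina1e also held a C/EBP match from -211 and C8a a STAT match from -228. The PU.1 core was searched in these promoters too, without a match.

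Periportal genes were lower in both pairs more often than genes at large: of 25 measured, 18 were below 0 in both pairs, against 45.4% of all genes tested. Of the 25, 4 were called lower, against 0.906% of all genes tested, and 0 higher. The median was -0.43, the lowest of the lists drawn in the plot by gene list. Cdh1, the cell adhesion protein E-cadherin, fell to 7.63 and 7.50 at day 456, against 8.49 and 8.85 at day 90 (-1.11 ± 0.14 log2, adjusted p = 0.0146). Hal, the first enzyme of histidine breakdown, fell to 11.86 and 11.96 at day 456, against 12.70 and 12.54 at day 90 (adjusted p = 0.0451). Gldc, of glycine cleavage, fell to 11.42 and 11.60 at day 456, against 12.47 and 12.12 at day 90 (adjusted p = 0.0460), and a second probe gave -0.37 and -0.29. Each of the 3 lay lower in both pairs without overlap between the ages, like all 81 genes called lower. Hsd17b6, a steroid dehydrogenase, was at -0.91 (adjusted p = 0.0840). All 4 were called without F1 5% D90.

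Pericentral genes had 1 of 30 called, in the lower direction, and a median of -0.13. That gene was Cyp1a2, the cytochrome P450 that oxidizes caffeine, which fell to 10.997 and 10.68 at day 456, against 11.87 and 11.52 at day 90 (-0.86 ± 0.13 log2, adjusted p = 0.0252). Its second probe gave -0.10 and -0.59. Of 72 genes of P450 enzymes and conjugation, 4 were called lower and 1 higher (median -0.09). Without F1 5% D90, 7 were called lower, 3 of the 4 among them, and 1 higher. The sulfotransferase Sult2a8 fell to 9.36 and 9.85 at day 456, against 10.94 and 10.57 at day 90 (adjusted p = 0.0432). The carboxylesterase Ces3b fell to 10.30 and 10.71 at day 456, against 11.88 and 11.43 at day 90 (adjusted p = 0.0397), with other probes at -0.80 and -0.49 and at -0.06 and -0.16. Sult1d1, another sulfotransferase, was at -0.60 (adjusted p = 0.0959). The higher gene was Sult1c2 at 1.33 and 0.50 (adjusted p = 0.0729). Outside the list, the P450 gene Cyp2b23 differed by 1.42 and 0.77 and rose 2.14-fold, and the glucuronosyltransferase gene Ugt1a2 differed by 2.37 and 0.73 and rose 2.93-fold (adjusted p = 0.0479 for both by limma). These 3 higher genes are named after their values were seen. Of 32 hepatocyte identity genes only Serpinc1 was called, and 21 were below 0 in both pairs, against 45.4% of all genes tested (median -0.14). Without F1 5% D90 Serpinc1 was not called and 1 other gene of the list was called higher.

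**Figure D4:**
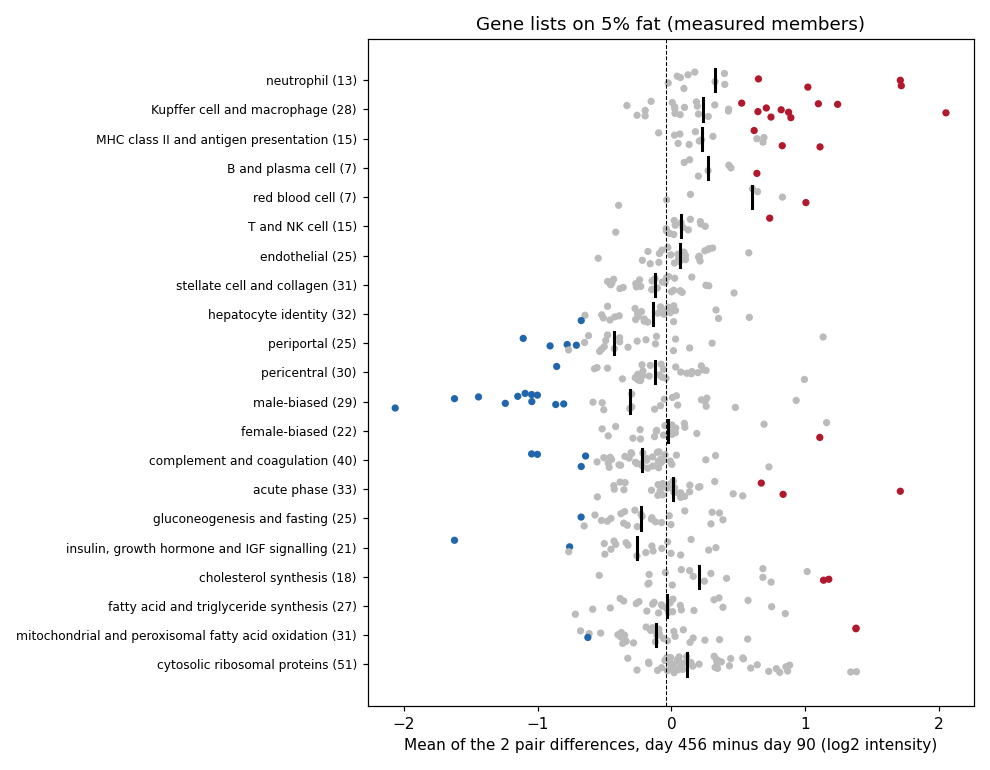
Mean of the F1 and F3 pair differences, day 456 minus day 90 on 5% fat, in log2 intensity (horizontal axis), for the measured members of 21 gene lists, with the number measured in brackets (red, called higher; blue, called lower; grey, not called). Black bars are list medians and the dashed line is the median of all genes tested, -0.04.

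Other leading lower genes had various functions. Lipa, the acid lipase of lysosomes, fell to 9.75 and 9.83 at day 456, against 11.67 and 10.86 at day 90 (-1.47 ± 0.24 log2, adjusted p = 0.0330). Bhmt, which remethylates homocysteine with betaine, fell to 9.68 and 8.81 at day 456, against 10.66 and 10.28 at day 90 (-1.22 ± 0.18 log2, adjusted p = 0.0255). Bhmt differed more in the F3 pair than in the F1 pair, as did 13 of the 81 lower genes. Elovl2, an elongase of long polyunsaturated fatty acids, had 9.89 and 9.68 at day 456, against 10.81 and 10.54 at day 90 (adjusted p = 0.0669). Ddx3x, an RNA helicase, was at -0.91 (adjusted p = 0.0546) and Osgin1, an oxidative stress gene, at -0.87 (adjusted p = 0.0601). Akr1c18, a progesterone-metabolizing reductase, had tight values of 6.96 and 6.94 at day 456, against 7.51 and 7.36 at day 90, and fell (adjusted p = 0.0132) by less than 0.5 in F3.

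Among genes of gluconeogenesis and fasting, 1 of 25 was called, lower (median -0.23). That was Gpt2, a mitochondrial alanine aminotransferase, which fell to 10.78 and 10.45 at day 456, against 11.48 and 11.11 at day 90 (adjusted p = 0.0432), and which was not called without F1 5% D90. Cholesterol synthesis had 2 of 18 genes called, both higher (median 0.20). The mevalonate pathway kinase Pmvk had 9.54 and 9.15 at day 456, against 7.82 and 8.60 at day 90, and rose 2.20-fold (adjusted p = 0.0490). The sterol dehydrogenase Nsdhl had 9.34 and 8.94 at day 456, against 7.49 and 8.44 at day 90 (adjusted p = 0.0565), and 2 of its 3 other probes gave like values while the third gave 0.24 and -0.06. Both were lowest in F1 5% D90, and in the limma fit without it their differences were 0.73 for Pmvk and 0.77 for Nsdhl. With the day 456 mean set against F3 5% D90 alone, the list median was 0.10.

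None of 27 genes of fatty acid and triglyceride synthesis was called (median -0.03, and 0.07 in the F1 pair alone). Gpam, which starts glycerolipid synthesis, rose 1.68-fold (adjusted p = 0.0469) with differences of 1.11 in F1 and 0.39 in F3. The lipogenic gene Thrsp was at 1.65 in F1 and 0.05 in F3 (adjusted p = 0.188) and the triokinase Tkfc at -1.09 and -0.35 (adjusted p = 0.0825). In each the F3 pair moved less than 0.5. Of 31 fatty acid oxidation genes, 2 were called higher and 1 lower (median -0.11). Acadl, a long-chain acyl-CoA dehydrogenase, had 10.09 and 10.11 at day 456, against 8.12 and 9.32 at day 90, and rose 2.60-fold (adjusted p = 0.0476). Acaa2, the mitochondrial thiolase, had 12.24 and 12.48 at day 456, against 10.28 and 11.68 at day 90 (adjusted p = 0.0543). Other probes of these genes disagreed: 1 of 3 for Acaa2 gave -0.30 and -0.24, and those of Acadl gave -0.14 and -0.05 and -0.42 and 0.02. The peroxisomal bifunctional enzyme Ehhadh was at -0.63 (adjusted p = 0.0597). Over the called genes, 57 had 82 other probes above the filter, of which 23 were called the same way and 20 had a mean difference of the opposite sign.

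The remaining lists held few called genes. None was called among 25 endothelial, 5 bile duct, 24 lipid droplet, 26 bile acid, 27 cell cycle, 23 cell cycle inhibitor and DNA damage, 31 NRF2 and redox and 17 iron handling genes, whose list medians lay between -0.15 and 0.06. Called lower without F1 5% D90 were 3 genes of cell cycle, 2 of NRF2 and redox, 1 of lipid droplets and 1 of cell cycle inhibitors and DNA damage. In the acute phase list 3 of 33 were called higher (median 0.01): Lcn2, the plasma glycoprotein Orm2 at 0.83 (adjusted p = 0.397) and the chemokine Cxcl1 at 0.67 (adjusted p = 0.153), and 0 passed by limma. The list had 2 of these 3 called higher and 2 others lower without F1 5% D90. Of 40 interferon-stimulated genes 2 were called higher (median 0.00). Csprs had 8.56 and 8.49 at day 456, against 7.80 and 7.50 at day 90, and rose 1.83-fold (adjusted p = 0.0202), whereas Gbp2, an interferon-induced GTPase, was at 0.71 (adjusted p = 0.0543). Eif2ak3, the PERK kinase of the unfolded protein response, fell by 0.52 (adjusted p = 0.0490) as the 1 of 31 genes called in its list. The circadian activator Clock was at -0.57 (adjusted p = 0.0637, 1 of 20 in its list called) and the chaperone Hsph1 at -0.84 (adjusted p = 0.0714, 1 of 18 heat shock genes called). Of 70 respiratory chain genes Atp5pb, of ATP synthase, was the 1 called, at 2.28 in F1 and 0.58 in F3 (adjusted p = 0.0728). None of 51 ribosomal protein genes was called (median 0.11), and Rps6, Rps7 and Rpl9 had F1 differences of 2.28, 2.23 and 1.56 beside F3 differences of 0.49, 0.45 and 0.21. In these 4 genes F1 5% D90 was by far the lowest of the 4 arrays.

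The same comparison on 21% fat gave fewer calls. Outside the genes set aside, 26 genes (0.293%) were called higher and 30 (0.338%) lower at day 456, and limma called 0 (406 of 8945, 4.54%, at an unadjusted p below 0.05). Of the 98 genes called higher on 5% fat, 11 were called higher on 21% fat, and of the 81 called lower, 13 were called lower there. None of the 179 was called in the opposite direction. In the same direction in both pairs of 21% fat, by any amount, were 44 of the 98, against 21.9% of all liver genes tested, and 32 of the 81, against 22.5%. The median differences of the 98 on 21% fat were -0.02 in the F1 pair and 0.21 in the F3 pair, and those of the 81 were 0.10 and -0.38. Because F1 21% D90 carried Eif2s3y, the F3 pair was also read alone: 18 of the 98 stood at least 0.5 higher, against 0.902% of liver genes, and 26 of the 81 at least 0.5 lower, against 1.16%.

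Immune and male-biased genes were among those called on both diets. S100a8 differed by 0.66 and 1.10 on 21% fat, Lyz2 by 0.63 and 0.89, and Slc4a1 by 0.64 and 0.96. Wfdc2, Tmem45b, Csprs and Ntrk2 were also called higher on both diets. Among the lower genes, Serpina1e differed by -3.61 and -2.28, Cyp2d9 by -3.26 and -1.35, and Hsd3b5 by -3.56 and -1.23, more on 21% fat in each F1 pair, whose day 90 array is the one with Eif2s3y. Egfr, Cdh1, Cyp1a2, C8a, C8b, Ces3b and Sult2a8 were called lower on both diets too. The male-biased list had medians of -1.04 in F1 and -0.26 in F3 on 21% fat, beside -0.42 and -0.24 on 5% fat. Other genes were not called on 21% fat: C1qc differed there by 0.06 and 0.32, C1qb by 0.01 and 0.18, and Gldc by -0.13 and 0.12.

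**Figure D5:**
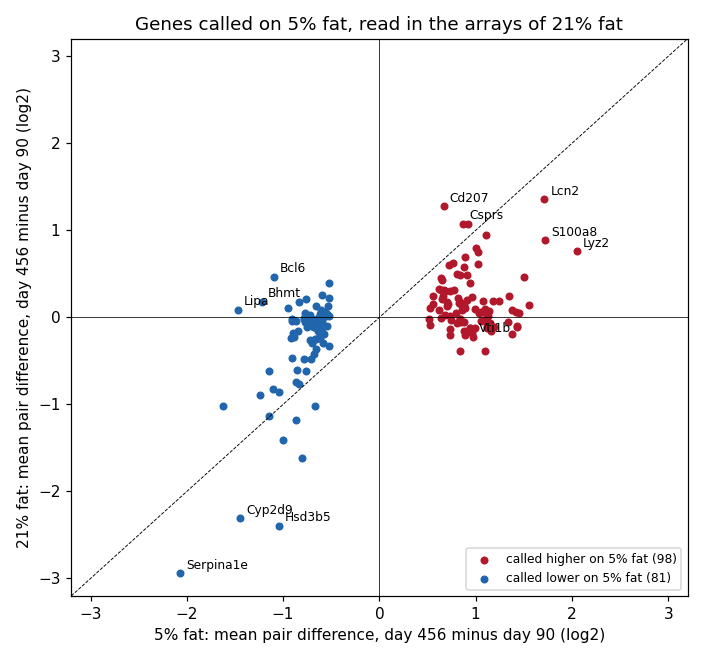
Mean pair difference, day 456 minus day 90 in log2 intensity, on 5% fat (horizontal axis) and on 21% fat (vertical axis) for the 98 genes called higher (red) and the 81 called lower (blue) on 5% fat; the dashed line marks equal differences. The difference was smaller in size or opposite on 21% fat in 95 of the 98 and 74 of the 81. The genes were chosen for large differences on 5% fat, so these counts describe them and test nothing. Over all genes tested the differences had an SD of 0.42 in F1 and 0.22 in F3 on 5% fat. On 21% fat the SD was 0.22 in F1 and 0.19 in F3.

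Whether the age difference on 5% fat differed from that on 21% fat was tested as the diet by age interaction. By limma 0 genes passed (1055 of 8945, 11.8%, at an unadjusted p below 0.05), while 73 of the 98 and 45 of the 81 had an unadjusted p below 0.05. The members were called for a large difference on 5% fat, which enters the interaction, so these counts describe them and test nothing. Without F3 5% D90 232 genes passed, without F3 21% D90 11 and without F3 5% D456 4. The smallest p among the called genes belonged to Vti1b, with an interaction of 1.20 ± 0.22 (adjusted p = 0.327 by limma), Bhmt with -1.40 ± 0.26 (adjusted p = 0.327) and Car3 with 0.94 ± 0.18 (adjusted p = 0.328). For these genes the difference between the diets was not shown after adjustment. The pancreas level also differed between the ages on 5% fat and not on 21% fat, and its part in the interaction was not tested.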

How the data were processed

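Per the labels' protocols, liver RNA was extracted with Trizol, checked on an Agilent Bioanalyser and labelled with biotin. The deposited values are linear intensity values, 1 per probe and array, with near-equal means and medians over the 8 arrays. How the authors normalized them, and whether they subtracted background, is not stated in the labels or the file.

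The values were log2 transformed as deposited. Probes with a mean above 6.95, the median of probe means, were kept (12848 of 25697), and the brightest probe stood for its gene, which left 8945 genes. Of all probes, 23978 carried 1 symbol, 0 several and 1719 none. Genes of pancreas, stomach and muscle lists were set aside. In limma 3.58.1 (R 4.3.3, statmod 1.5.0) the mean difference was fitted over all 8 arrays with a term for each of the 4 diet and age groups and a term for generation (3 residual and 6.01 prior degrees of freedom, intensity trend, two-sided, Benjamini-Hochberg over all genes). The number of arrays limits the precision. Figures were drawn with matplotlib 3.10.9, and the fit was checked on simulated data.

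Generation, which the labels give, pairs the arrays. The named genes are the 14 called genes in each direction with the largest smaller-of-2 pair difference, up to 4 called members of each list described (up to 3 by mean difference where none was called), the 3 called genes with the smallest interaction p, and the 10 genes with the smallest limma p. Of these 10, Gp2, Sycn and Klk1b27 are pancreas genes and were set aside. Ptprc, Tff2, Eif2s3y, Xist, Lyz1, Sult1c2, Cyp2b23, Ugt1a2 and the genes at the bounds of the call lie outside that rule. They were chosen after values were seen. Of 39 gene lists (1422 symbols, 932 measured), those with called members or a role in the ageing liver are described. The members of the comparison and the lists were chosen with earlier results of these data known. Alternatives were other minimum differences, scalings, filters, probe rules, variance models and designs. Each array was also left out in turn, each pair was read alone, and the pancreas level served as a covariate. The covariate, and leaving out an array in the pair rule, were chosen after seeing the data.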

Additional observations from a re-analysis of the deposited data

Results flagged for a closer look

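For 7 named genes both pairs of 5% fat differed one way with age and both pairs of 21% fat the other way. The interaction, 5% minus 21% fat, was tested with limma over 8945 genes, and none of the 7 passed. Vti1b differed by 1.02 in F1 and 0.92 in F3 on 5% fat, beside -0.05 and -0.40 on 21% fat, with an interaction of 1.20 ± 0.22 (SE, adjusted p = 0.327). Bhmt differed by -0.98 and -1.47 on 5% fat, beside 0.12 and 0.24 on 21% fat, with an interaction of -1.40 ± 0.26 (adjusted p = 0.327). Car3 differed by 0.88 and 0.60 on 5% fat, beside -0.24 and -0.16 on 21% fat, with an interaction of 0.94 ± 0.18 (adjusted p = 0.328). Hsph1 had an interaction of -1.02 ± 0.29 (adjusted p = 0.403) and Clock one of -0.63 ± 0.19 (adjusted p = 0.403). Tkfc, not called on 5% fat, differed by -1.09 and -0.35 there, beside 0.29 and 0.22 on 21% fat, with an interaction of -0.97 ± 0.28 (adjusted p = 0.403). Klk1b27, one of the pancreas genes set aside, differed by 0.73 in both pairs of 5% fat, beside -0.04 and -0.06 on 21% fat, with an interaction of 0.78 ± 0.12 (adjusted p = 0.327). These genes were named for their differences on 5% fat, which enter the interaction. Groups of 2 arrays are too small for a test of outlying arrays.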

How the results depend on the processing

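The pair rule (98 higher, 81 lower) gave 174 and 184 genes at a minimum of 0.4, 23 and 12 at 0.75, 5 and 5 at 1, 83 and 48 when the ages had to stand 0.5 apart without matching, and 269 and 251 with the 5th percentile of each array subtracted. Quantile normalization, centring, other filters and probe means stayed within 1.5 times in both directions. Leaving out 1 array of 5% fat gave 91 to 560 higher and 80 to 563 lower, both highest without F3 5% D90.

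The limma counts (100 higher, 37 lower) moved more. They were 131 and 22 with centred arrays, 38 and 10 with the 5th percentile subtracted, 158 and 62 without an intensity filter, 58 and 13 with probe means, 6 and 3 in the additive model, 0 and 0 without the variance trend (2211 genes at an unadjusted p below 0.05), 242 and 178 with robust variances, 479 and 470 at an adjusted p of 0.1, and 0 and 0 with the pancreas covariate (322). With no replicate block, the generation term that pairs the arrays left out, 18 and 3 passed. Leaving out 1 array gave 0 to 636 higher and 0 to 714 lower, lowest without F1 5% D90 and highest without F3 5% D90. Without F1 21% D90, F3 21% D90, F1 21% D456 and F3 21% D456 in turn they were 38 and 17, 37 and 17, 9 and 2, and 19 and 5. The interaction passed in 0 genes, and in 0 to 232 when 1 array was left out.

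With the pancreas covariate the sign turned for Lcn2 (-0.34), Tkfc (0.10), Acaa2 (-0.029), Orm2 (-0.33), Cxcl1 (-0.65), Hsph1 (0.12), Atp5pb (-0.14), Rps6 (-0.40), Rps7 (-0.57) and Rpl9 (-0.16); the cause was not tested. Of 1636 values of the 75 named genes under the alternatives, 1211 kept direction and, where a p was computed, side of the threshold. Another 331 lost the threshold, 84 gained it and 10 reversed. Values from a single pair had no p and were judged by direction alone. All 75 genes differed in the same direction in both pairs, so these values could only count as kept and add nothing. Of 341 list medians, 17 took the other sign. Intensities near 6.95 are close to background, which limits differences of dim genes.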
